A study of Mus musculus with 6 samples.

Results

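The 7 genes described here, Fabp1 to Fabp7, encode cytosolic fatty acid binding proteins (FABPs) and are 7 of the 19938 mouse genes measured in liver on 6 expression arrays. They were chosen by name as the numbered Fabp genes, with the diet comparison of these arrays in view, in which Fabp5 was higher and Fabp2 lower under lovastatin and ezetimibe. The diet differences of the members are therefore given as a description, with no test. Each gene is read from 1 Affymetrix probe set, a group of short probes for 1 transcript, and is the brightest of those annotated to that gene alone. In the liver, Fabp5 intensity was 3.75-fold higher and Fabp2 intensity 2.61-fold lower on the drug diet than on the cholesterol diet. The other 5 genes differed by at most 1.16-fold.

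Liver RNA came from male C57BL/6 mice, an inbred strain, given as 6 weeks old in the labels and acclimatized on chow for 1 week. The cholesterol group ate chow with 1% cholesterol by weight (arrays CH1 to CH3). The other group ate chow with 100 mg lovastatin and 21 mg ezetimibe per 100 g (arrays LE1 to LE3). Lovastatin is a statin, which inhibits cholesterol synthesis, and ezetimibe blocks sterol absorption in the gut, so one diet supplied cholesterol and the other limited it. Mice on plain chow, mentioned in the labels, are not analysed here, so neither diet is set against chow. The labels call the arrays biological replicates without tying them to single animals, so errors and p-values measure the spread between arrays, which may be partly technical.

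FABPs are small barrel-shaped proteins that hold long-chain fatty acids and other hydrophobic ligands in the cytosol. They carry these ligands between membranes, to the enzymes that activate or burn them, and to nuclear receptors of the PPAR family. Several members are named for the tissue where they are most abundant: Fabp1 for liver, Fabp2 for intestine, Fabp3 for heart, Fabp4 for adipose tissue, Fabp5 for epidermis, Fabp6 for ileum and Fabp7 for brain. Fabp1 is the main form in hepatocytes, and its gene is a known target of PPAR alpha.

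The reference sequences just upstream of 5 of these genes are given as promoter context. A RefSeq promoter table (build GRCm38.p6) held 5 of the 7 genes, Fabp1, Fabp2, Fabp3, Fabp6 and Fabp7. It held no entry for Fabp4 or for Fabp5, the member with the largest difference. The 250 bases before each start were searched on both strands for AGGTCA (the half-site bound by PPAR and RXR), TCACCCCAC (a sterol regulatory element core), CACGTG (an E-box) and TATAAA (the box near many start sites). The windows shown are those of Fabp1, the hepatocyte form, of Fabp2, the member with the largest difference downward, and of Fabp6, the member with a sterol regulatory element match. They lie at chr6:71199629-71199878 on the plus strand for Fabp1, chr3:122894822-122895071 on the plus strand for Fabp2 and chr11:43601563-43601812 on the minus strand for Fabp6. Each is printed 5′ to 3′ on the strand of the gene, with matches in capitals.
Fabp1: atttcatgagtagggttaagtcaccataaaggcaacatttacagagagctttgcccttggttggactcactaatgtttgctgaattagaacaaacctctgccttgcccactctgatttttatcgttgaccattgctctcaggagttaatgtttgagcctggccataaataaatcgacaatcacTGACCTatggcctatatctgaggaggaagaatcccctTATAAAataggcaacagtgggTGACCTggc
Fabp2: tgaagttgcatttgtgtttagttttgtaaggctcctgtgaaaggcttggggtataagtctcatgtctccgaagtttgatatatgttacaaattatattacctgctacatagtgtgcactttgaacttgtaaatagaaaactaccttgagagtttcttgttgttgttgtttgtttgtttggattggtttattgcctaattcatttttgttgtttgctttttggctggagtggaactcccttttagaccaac
Fabp6: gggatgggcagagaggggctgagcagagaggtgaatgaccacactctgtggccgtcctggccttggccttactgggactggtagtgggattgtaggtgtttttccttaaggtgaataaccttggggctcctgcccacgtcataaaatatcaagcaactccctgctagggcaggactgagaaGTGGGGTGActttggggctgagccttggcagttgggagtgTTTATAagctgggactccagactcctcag
Fabp1 had 3 matches, AGGTCA on the other strand at 67 to 62 and at 9 to 4 bases before the start, and TATAAA at 30 to 25 bases. Fabp6 had 2 matches on the other strand, TCACCCCAC at 69 to 61 bases and TATAAA at 29 to 24 bases. Fabp7 had 1 match, AGGTCA on the other strand at 171 to 166 bases, and the windows of Fabp2 and Fabp3 had 0. No match overlapped another. Among the 32851 promoter windows of the table, 14.0% held AGGTCA, 12.4% TATAAA, 6.02% CACGTG and 0.496% TCACCCCAC. A match is a description of the letters only, and a window with 0 matches says nothing of the factors that act on that gene. The Fabp2 window had a GC content of 35.6%, against 42.8% for Fabp1, 64.8% for Fabp3 and 54.8% for both Fabp6 and Fabp7.

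Fabp5, which carries fatty acids to PPAR delta among other partners and is made in epidermis, macrophages and adipose tissue, had the largest difference of the 7. Its intensity was 750.3, 729.0 and 736.2 in CH1, CH2 and CH3 and 2777.7, 2798.1 and 2733.4 in LE1, LE2 and LE3. All 3 drug arrays lay far above all 3 cholesterol arrays, and the arrays within each diet lay close together. The means were 739 ± 10.9 on cholesterol and 2770 ± 33.1 on lovastatin and ezetimibe (SD, n = 3 each). The difference on the log2(intensity + 1) scale was 1.91 with a standard error of 0.05 and a 95% interval of 1.80 to 2.01. Only 36 of the 19938 genes had a larger difference upward. The pooled SD within diets was 0.019 on the log2 scale, and 98.7% of genes had a larger one.

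A second probe set annotated to Fabp5 alone gave 574.4, 548.8 and 553.3 on cholesterol and 2127.1, 2156.6 and 2092.7 on the drug diet. That is a difference of 1.93 (SE 0.05, 95% interval 1.81 to 2.04 in the fit over every probe set), or 3.80-fold, so both probe sets showed nearly the same difference. RefSeq lists a Fabp5 pseudogene, Fabp5l2, and related transcripts can bind the same probes. The probe annotation does not say which locus either probe set was designed on, so Fabp5 is uncertain to that extent. The second probe set is numbered 10490838, close to the 10490826 of Zbtb10, a gene beside Fabp5 on chromosome 3. The other measured genes around Fabp5 have numbers up to 10497300. The probe set used for Fabp5 throughout, 10585699, is numbered outside that range and may lie on another locus, which was not tested.

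Fabp2, the intestinal form, which enterocytes use to carry absorbed fatty acids, had the largest difference downward of the 7. It read 2215.6, 2163.6 and 2256.5 in CH1 to CH3 and 808.4, 858.1 and 880.1 in LE1 to LE3. Every drug array was below every cholesterol array, with a wide gap between the diets. The means were 2212 ± 46.5 and 849 ± 36.7 (SD, n = 3 each). The log2 difference was -1.38 (SE 0.05, 95% interval -1.50 to -1.26), and 11 genes had a larger difference downward. Liver RNA is a mixture of cell types. For Fabp2, Fabp5 and the other genes a change in the number of cells and a change in RNA per cell therefore cannot be told apart.

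**Figure D1:**
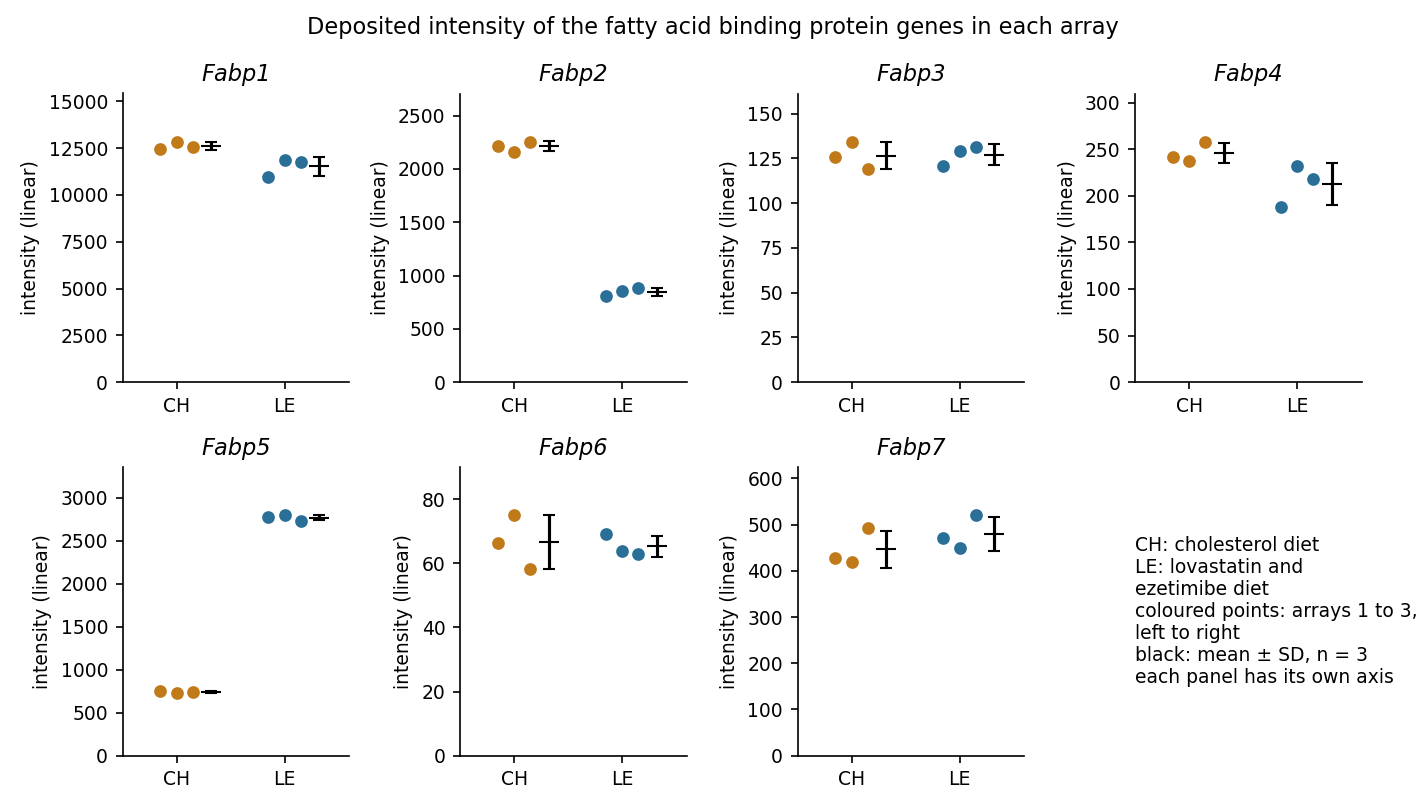
Deposited intensity (linear scale, vertical axis from 0, a separate axis for each gene) of Fabp1 to Fabp7 in the cholesterol (CH) and the lovastatin and ezetimibe (LE) arrays, with 1 coloured point per array and black bars for the mean ± SD (n = 3). The diets are far apart for Fabp2 and Fabp5, narrowly apart for Fabp1 and Fabp4, and overlap for Fabp3, Fabp6 and Fabp7.

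Fabp1, the abundant hepatocyte form, differed little. It read 12429.4, 12842 and 12580.6 in CH1 to CH3 and 10942.5, 11871.6 and 11753.6 in LE1 to LE3. The diets did not overlap, and LE1 was the lowest array. The means were 12617 ± 209 and 11523 ± 506 (SD, n = 3 each), which is 1.10-fold lower on the drug diet. The log2 difference was -0.13 (SE 0.05, 95% interval -0.25 to -0.0097).

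Fabp4, the adipose form, which macrophages also make, read 241.6, 237.7 and 258.1 in CH1 to CH3 and 188.3, 232.4 and 217.5 in LE1 to LE3. The diets did not overlap, but the gap between CH2 and LE2 was small and LE1 was well below the other drug arrays. The log2 difference was -0.21 (SE 0.08, 95% interval -0.40 to -0.02), or 1.16-fold lower. Without LE1 the difference was -0.13, so that array carried much of it.

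Fabp3, the heart and muscle form, read 126.0, 134.4 and 119.3 on cholesterol and 120.6, 129.4 and 131.5 on lovastatin and ezetimibe. The diets overlapped, and the log2 difference was 0.0078 (SE 0.06, 95% interval -0.14 to 0.15). Its second probe set read 90.5, 98.1 and 92.6 against 88.5, 96.5 and 92.3, a log2 difference of -0.02 (95% interval -0.16 to 0.12 in the fit over every probe set). RefSeq also lists a Fabp3 pseudogene, so the same limit on probes holds for Fabp3.

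Fabp7, the brain form found in glia and neural progenitors, read 427.4, 419.5 and 493.0 on cholesterol and 472.0, 448.6 and 520.5 on the drug diet. The diets overlapped, with CH3 and LE3 the highest of each. The log2 difference was 0.11 (SE 0.08, 95% interval -0.09 to 0.30). Fabp6, the ileal bile acid binding protein, read 66.4, 75.0 and 58.2 against 69.1, 63.8 and 63.0. The drug arrays lay within the range of the cholesterol arrays, and the log2 difference was -0.02 (SE 0.09, 95% interval -0.23 to 0.19). The Fabp6 probe set was among the dimmest 33.3% of those used, as for no other member. For Fabp3, Fabp6 and Fabp7 the intervals bound a diet difference at these sizes and do not show that it is absent.

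The members were listed with Fabp5 known to be higher and Fabp2 lower in this contrast, so the counts that follow were in part fixed by that choice and nothing is read from them. Of all 19938 genes, 2410 (12.1%) passed an adjusted p of 0.05, 1398 (7.01%) higher and 1012 (5.08%) lower on lovastatin and ezetimibe, and 2 of the 7 members, Fabp2 and Fabp5, are among them. The diets did not overlap for 4 of the 7 members (Fabp1, Fabp2, Fabp4 and Fabp5), and for 6109 of all genes (30.6%). The median difference was -0.02 over the 7 members and -0.0049 over all genes. The large differences of Fabp2 and Fabp5 point in opposite ways, and the median of the family shows neither.

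**Figure D2:**
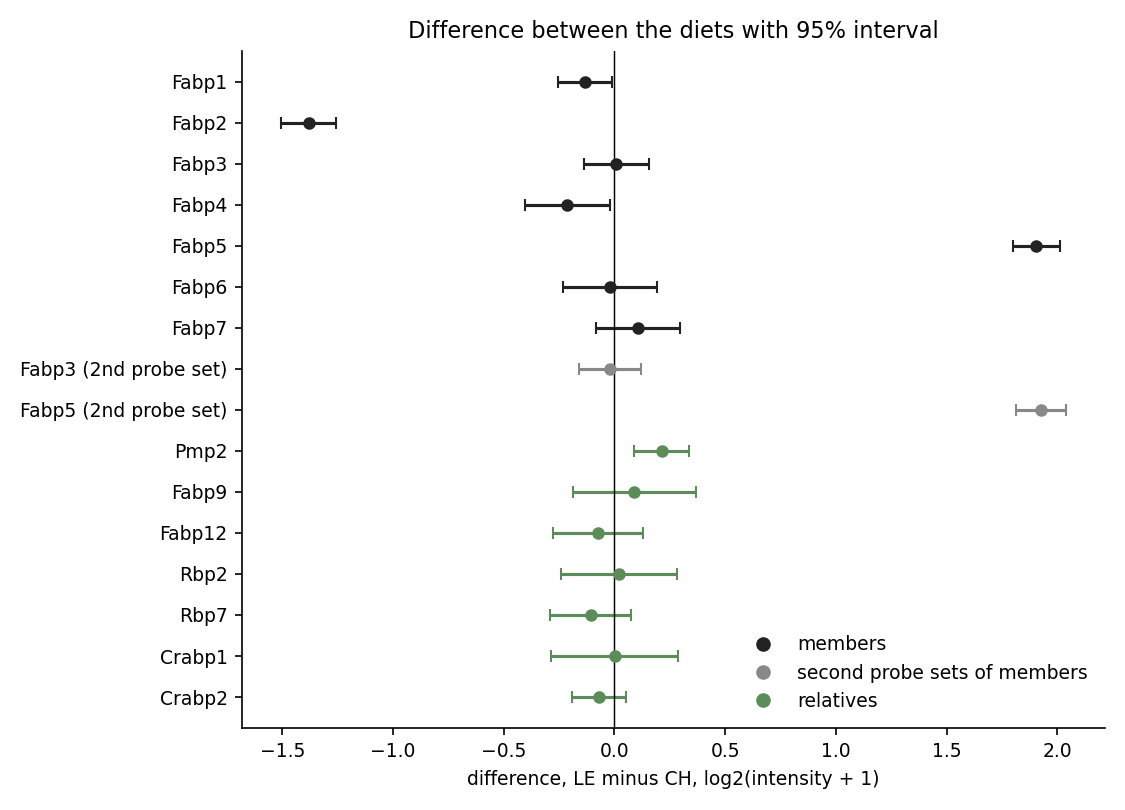
Difference between the diets (lovastatin and ezetimibe minus cholesterol, log2(intensity + 1), horizontal axis) for the 7 members, the second probe sets of Fabp3 and Fabp5, and 7 lipid-binding relatives; points are differences and bars 95% intervals of the fit, not adjusted for the number of genes (n = 3 arrays per diet). Fabp5 lies at 1.91 on one probe set and 1.93 on the other, Fabp2 at -1.38, and all others between -0.21 and 0.21.

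The wider family of intracellular lipid binding proteins, which share the FABP fold and also carry retinoids, showed small differences. Of the 7 relatives measured, 1 was higher past the threshold and 0 were lower, with 1 at an unadjusted p under 0.05. The median difference was 0.00038. The higher one was Pmp2, a fatty acid binding protein of peripheral myelin. It read 37.9, 40.5 and 38.0 in CH1 to CH3 and 46.6, 43.4 and 45.5 in LE1 to LE3, so the diets did not overlap in a dim signal. Its log2 difference was 0.21 (SE 0.05, adjusted p = 0.0400 with limma). That call was lost in 10 of 16 alternatives, among them the omission of any 1 array, with adjusted p-values from 0.00592 to 0.272. Fabp9, a testis form, differed by 0.09 (SE 0.12, adjusted p = 0.721) and Fabp12 by -0.07 (SE 0.09, adjusted p = 0.679). The retinoid carriers Rbp2, Rbp7, Crabp1 and Crabp2 lay between -0.11 and 0.02, and none passed.

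Fabp5 is the outer gene of a cluster that RefSeq orders as Fabp5, Pmp2, Fabp9, Fabp4 and Fabp12 on chromosome 3, and Fabp2 lies elsewhere on the same chromosome. The 5 cluster genes thus ran from 1.91 for Fabp5 to -0.21 for Fabp4 on the log2 scale. The Fabp5 probe set used has no stated locus and may not lie in this cluster. Its second probe set, numbered close to Zbtb10, differed by 1.93. Of the 3 measured genes on the Fabp5 side, Zbtb10 differed by 0.09 and Zfp704 by 0.08, with neither past the threshold. Pag1, the nearest, which encodes a membrane adaptor of Src family kinases, read 206.3, 176.7 and 165.6 on cholesterol and 297.2, 277.3 and 301.7 on the drug diet. Pag1 thus rose, with diets that did not overlap, by 0.68 (SE 0.08, adjusted p = 0.00169 with limma). Its adjusted p was under 0.05 in all 17 alternatives. On the far side, Impa1, Slc10a5 and Zfand1 differed by -0.09, 0.03 and -0.15, and none passed. Around Fabp2 none of the 6 measured flanking genes passed, with differences from -0.19 (Fnbp1l, adjusted p = 0.110) to 0.05 (Myoz2).

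**Figure D3:**
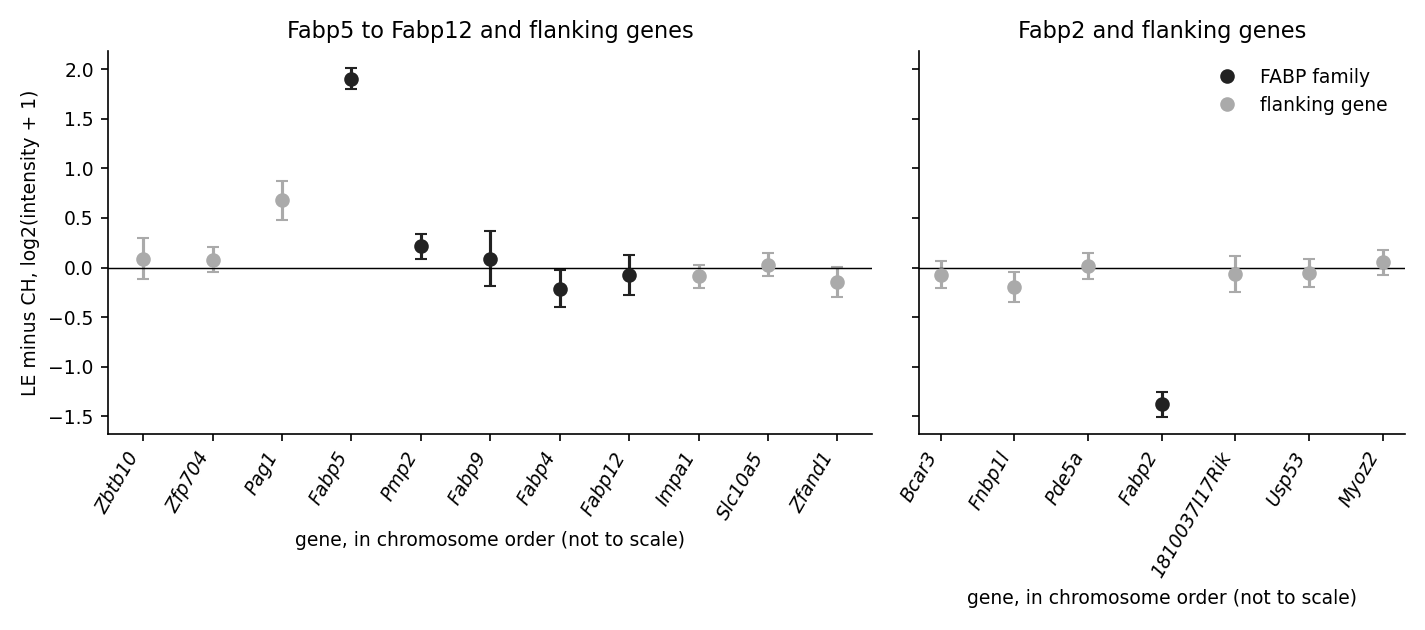
Difference between the diets (log2(intensity + 1), vertical axis) of genes in chromosome order, not to scale, with 95% intervals as bars and n = 3 arrays per diet; FABP family genes are black and flanking genes grey. Fabp5 at 1.91, from a probe set of no stated locus, and Pag1, a flanking gene, at 0.68 stand above the other genes of the left panel. Fabp2 at -1.38 lies below all 6 of its flanking genes, which lie between -0.19 and 0.05.

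The genes with the array profile most like that of Fabp5 or Fabp2 were found by the root mean square difference between profiles. Each profile is the 6 log2 values minus their mean, so a small value means a diet difference of like size in the same arrays. For Fabp5 the nearest was Cyp17a1, a steroid hydroxylase, at 0.043. It read 260.2, 252.8 and 275.4 on cholesterol and 946.7, 992.0 and 955.8 on the drug diet, a difference of 1.87 (SE 0.05). The water channel Aqp8 followed at 0.047, with 2336.0 to 2351.2 on cholesterol and 8208.7 to 8338.6 on the drug diet. Then came Eepd1 (0.053), Abcd2, a peroxisomal transporter of very long-chain acyl-CoA (0.056), and Prss8, a membrane-anchored protease (0.057), which differed by 1.93, 1.95 and 1.84.

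For Fabp2 the nearest was Hsd3b2, of the steroid dehydrogenase family, at 0.048. It read 1929.2, 1960.9 and 2052.4 on cholesterol and 763.4, 829.1 and 824.7 on the drug diet, a difference of -1.30 (SE 0.06). Srebf1, the gene of a transcription factor of fatty acid synthesis, came next at 0.057, with 2780.7, 2595.8 and 2644.2 against 990.3, 967.3 and 995.0, a difference of -1.44. Spry4, an inhibitor of receptor kinase signalling (0.062), Lpl (0.073) and the carboxylesterase gene Ces1b (0.086) differed by -1.39, -1.27 and -1.51. Hsd3b2 and Ces1b belong to families of near-identical genes, whose transcripts can share probes. These 10 genes were picked for a diet difference like that of Fabp5 or Fabp2, so the difference is a description, and no p-value is attached to that choice. Lpl is also in the fatty acid uptake list below, where its adjusted p is that of the fit over all genes. Likeness over 6 arrays of 2 diets says no more than that the genes differed by like amounts.

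**Figure D4:**
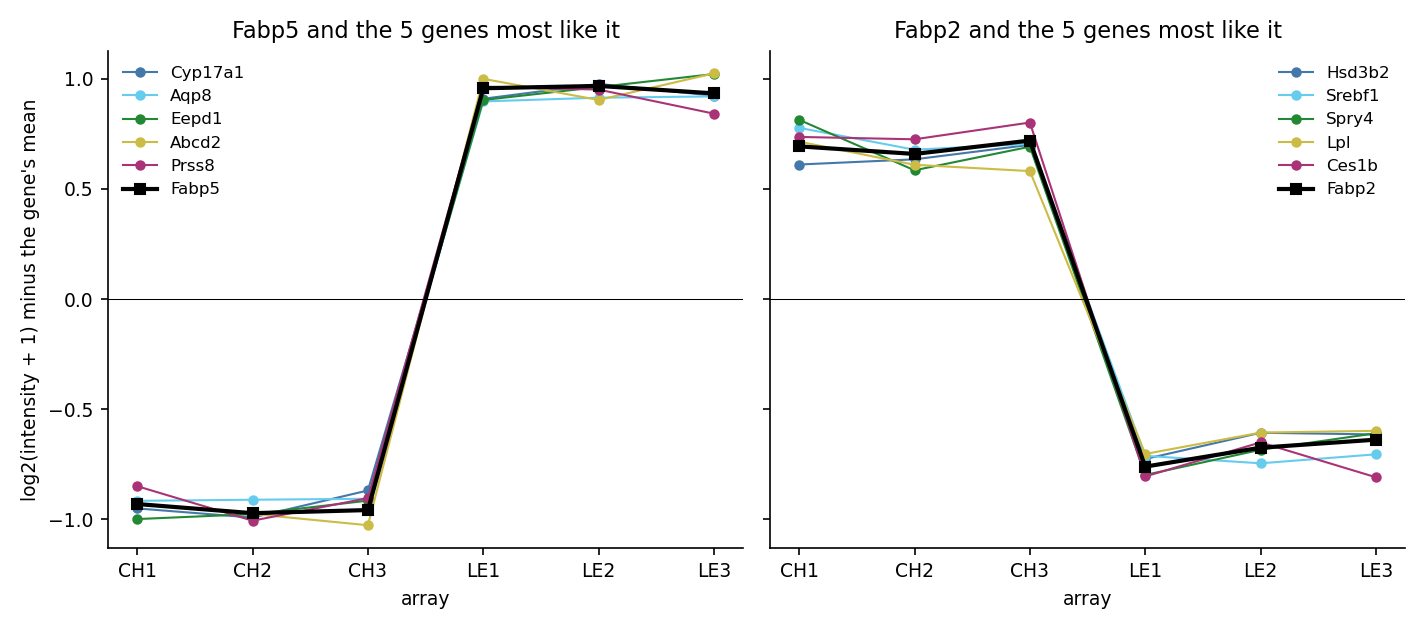
Log2(intensity + 1) minus the mean of each gene (vertical axis) in each of the 6 arrays (horizontal axis) for Fabp5 (left, black squares) and Fabp2 (right, black squares) with the 5 genes most like each in colour. Every coloured line follows the black one from below 0 to above 0 on the left and from above 0 to below 0 on the right.

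FABPs receive fatty acids that enter at the cell surface, and the genes around this step are given by list, beside 12.1% of all genes past the threshold and a median of -0.0049 over all genes. A count at an unadjusted p under 0.05 has no share over all genes beside it, so nothing is read from it. Of 11 genes of fatty acid uptake, all measured, 0 were higher and 2 lower past the threshold, with a median of -0.03 and 3 at an unadjusted p under 0.05. Lpl, the lipase that frees fatty acids from lipoproteins, fell from 1012 ± 49.9 to 419 ± 16.8 (SD, n = 3 each), a log2 difference of -1.27 (SE 0.06, adjusted p = 7.34e-06 with limma). Slc27a2, a fatty acid transport protein and acyl-CoA synthetase, fell by 0.27 on the log2 scale (SE 0.05, adjusted p = 0.00842). The transporter Cd36 differed by -0.18 (adjusted p = 0.0762).

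Acyl-CoA synthetases activate the fatty acids, and acyl-CoA binding proteins hold the products. Of 16 such genes 14 were measured, of which 4 were higher, 4 lower and 6 not past the threshold, with a median of -0.03. Acss2, which makes acetyl-CoA from acetate, rose from 2106 ± 64.3 to 10945 ± 214 (SD, n = 3 each), by 2.38 on the log2 scale (SE 0.05, adjusted p = 9.59e-08 with limma). Acsl4, a synthetase that prefers arachidonate, rose by 0.85 and Acsl5, another long-chain synthetase, by 0.56. The medium-chain synthetases Acsm3 and Acsm5 differed by -0.55 and -0.34 and the sterol carrier gene Scp2 by -0.32, all past the threshold. These 6 calls held in all 17 alternatives.

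FABPs also deliver ligands to PPARs, which act with RXR. Of 10 receptor and coactivator genes, 2 were higher, 2 lower and 6 not past the threshold, with a median of -0.08. The coactivator gene Ppargc1a rose from 412 ± 17.4 to 807 ± 63.7 (SD, n = 3 each), by 0.97 (SE 0.07, adjusted p = 8.68e-05 with limma), while Ppargc1b fell by 0.59 on the log2 scale (SE 0.05, adjusted p = 0.000324). Ppard, the receptor gene of PPAR delta, differed by 0.26 (adjusted p = 0.0282), a call lost without CH1, CH2, LE1 or LE3 (highest adjusted p 0.107). Pparg differed by -0.31 (adjusted p = 0.0187), a call lost without any of the 3 cholesterol arrays (highest adjusted p 0.0591). Ppara differed by -0.18 (adjusted p = 0.0566), so it did not pass. Without CH1 or CH2, 2 of the 10 genes passed, beside 1489 and 1723 of all genes, against 2410 in full.

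Fabp1 is itself a PPAR target, and of 24 other PPAR targets in liver 21 were measured. Of these 6 were higher, 8 lower and 7 not past the threshold, with a median of -0.13, so the list moved both ways. Pdk4, a kinase that slows glucose oxidation, rose from 394 ± 2.36 to 1167 ± 13.1 (SD, n = 3 each), by 1.56 (SE 0.05, adjusted p = 4.42e-07 with limma). Cyp4a14, a fatty acid hydroxylase, rose by 0.64. Acaa1b, a peroxisomal thiolase, fell from 4026 ± 259 to 1370 ± 139 (SD, n = 3 each), a log2 difference of -1.56 (SE 0.08, adjusted p = 1.66e-05). Acot1, an acyl-CoA thioesterase, differed by -0.71 and Vnn1, a pantetheinase, by -0.69, both past the threshold. The calls of these 5 genes held in all 17 alternatives, but related Cyp4a and Acot genes may share probes. Acadm, a dehydrogenase of fatty acid oxidation, differed by -0.27 (adjusted p = 0.0140), a call lost with a replicate block and without CH1, CH2 or LE2 (highest adjusted p 0.0642). The count of 14 fell to 6 without CH1, 8 without CH2 or CH3, 9 without LE1, 7 without LE2 and 7 with a replicate block. Calls over all genes fell too, from 2410 to 1489 without CH1, 1723 without CH2, 1656 without CH3 and 1815 without LE1. They were 1514 without LE2 and 1688 with the block. The list count rose to 16 with an intensity trend and robust prior or a regularised test like cyberT, where 11 genes were lower. Over all genes these settings called 3521 and 3093. Quantile normalisation over the tested genes also gave 16, with 10 lower, beside 3058 of all genes.

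Fabp6 binds bile acids, and of 12 genes of bile acid transport and sensing, all measured, 2 were higher, 1 lower and 9 not past the threshold, with a median of -0.09. Slc10a2, the bile acid transporter that acts with Fabp6 in the ileum, rose from 263 ± 21.0 to 580 ± 26.7 (SD, n = 3 each), by 1.14 (SE 0.07, adjusted p = 3.97e-05 with limma) and in all 17 alternatives, beside a Fabp6 difference of -0.02. Slc51b, a subunit of the basolateral bile acid exporter, differed by 0.36 (adjusted p = 0.0262), a call lost without CH1, CH2, LE2 or LE3 (highest adjusted p 0.0983). Slco1b2, a hepatocyte uptake transporter, differed by -0.23 (adjusted p = 0.0250), a call lost with a replicate block and without any array but CH2 (highest adjusted p 0.103). The count of 3 fell to 1 without CH1, LE2 or LE3, where calls over all genes fell from 2410 to 1489, 1514 and 1868. The list count was 5 when the dimmest 33.3% of genes were left out or the arrays quantile normalised. It was 6 with an intensity trend and robust prior or a regularised test like cyberT, where 3 genes were lower. Calls over all genes rose as well in these settings, to 3097, 2882, 3521 and 3093 in that order.

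**Figure D5:**
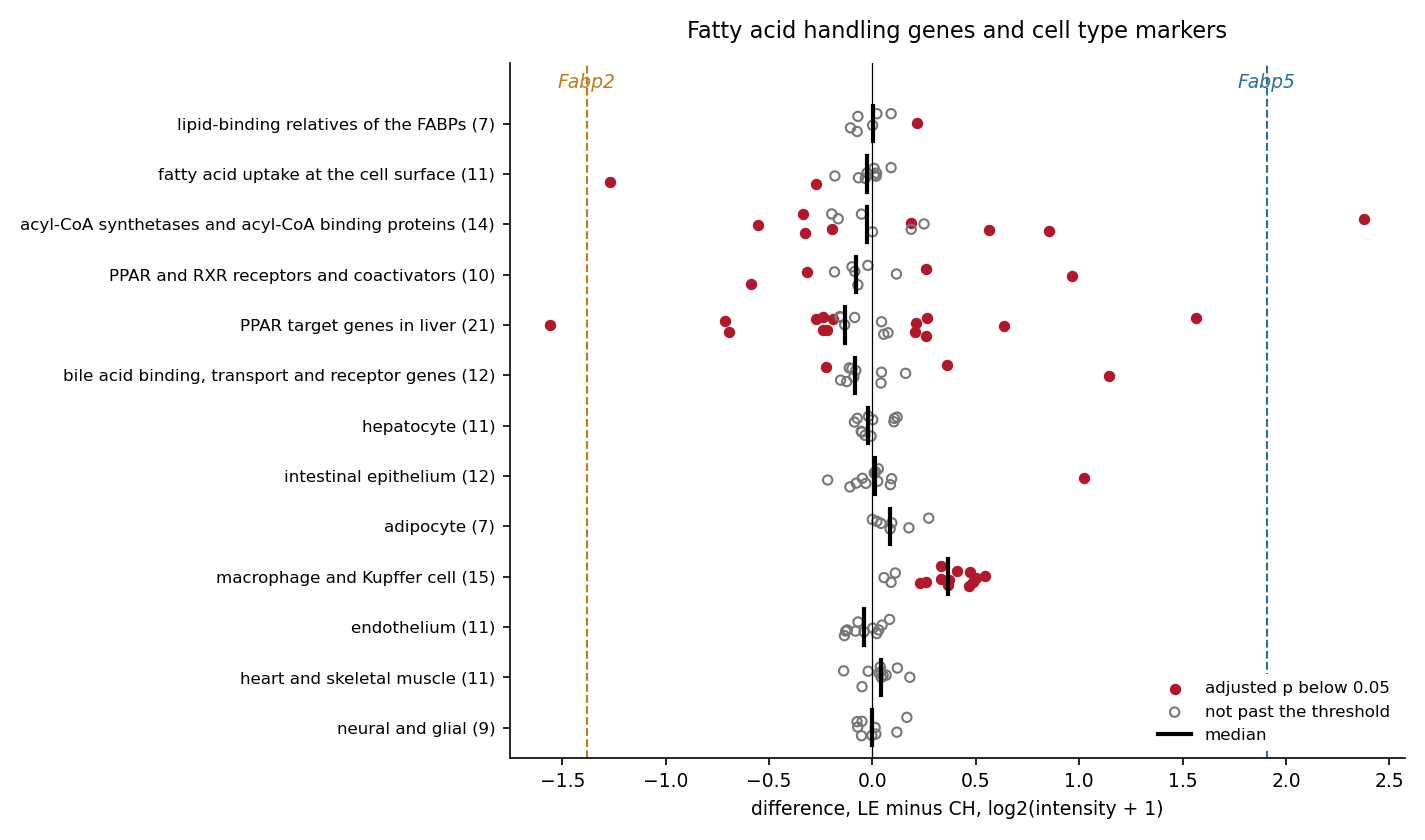
Difference between the diets (log2(intensity + 1), horizontal axis) of each measured gene in 6 lists of lipid handling genes and 7 lists of cell type markers, with the number measured in brackets; filled points passed an adjusted p of 0.05, open points did not, short bars are list medians and dashed lines mark Fabp2 and Fabp5. Macrophage markers lie to the right of 0 with a median of 0.36, and the hepatocyte markers centre near 0.

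Several FABPs are known from cells other than hepatocytes, so markers of those cells are given beside them. Of 15 macrophage and Kupffer cell markers 12 were higher past the threshold and 0 lower, with differences of 0.06 to 0.55 and a median of 0.36. Cd68 rose by 0.55, Cd163 by 0.50, Lyz2 by 0.48 and C1qb by 0.47. Their summed intensity was 11188 to 11879 on cholesterol and 14657 to 15029 on the drug diet, in the direction of Fabp5 and against that of Fabp4. The part of these cells in the Fabp5 difference was not tested.
Of 12 markers of intestinal epithelium 1 was higher and 0 were lower, with a median of 0.01 and 2 at an unadjusted p under 0.05. That one was Tff3, a secreted trefoil peptide, at 1.02 (SE 0.06, adjusted p = 3.81e-05 with limma). The summed intensity was 1875 to 1984 on cholesterol and 2443 to 2668 on the drug diet, and Tff3 alone went from 570 ± 20.7 to 1163 ± 78.8 (SD, n = 3 each). The sums of the other 11 markers overlapped, at 1289 to 1437 and 1317 to 1415. Without CH1, 2 markers passed, 1 of them lower. The part of these cells in the Fabp2 difference was not tested. Of 9 adipocyte markers 7 were measured and 0 passed in limma's fit (2 at an unadjusted p under 0.05), with a median of 0.09, beside the -0.21 of Fabp4. Lipe, a lipase of fat cells, and Retn, which encodes the hormone resistin, came nearest to the threshold, with log2 differences of 0.27 and 0.18. In 7 of 17 alternatives 1 or 2 adipocyte markers passed, all higher, with 2 when the dimmest 33.3% of genes were left out. That setting called 3097 genes in all, against 2410 in full. Their sums, 11005 to 11335 and 10885 to 11571, were 91.5% Pck1, an enzyme that hepatocytes also make. The other 6 markers summed to 862 to 897 on cholesterol and 941 to 1077 on the drug diet, which did not overlap. Lipe, the brightest of them, alone went from 443 ± 25.1 to 536 ± 48.4 (SD, n = 3 each). This sum thus follows Lipe in large part and is not read as a measure of fat cells. The part of these cells in the Fabp4 difference was not tested.
In limma's fit 0 of 11 muscle markers (1 at an unadjusted p under 0.05) and 0 of 9 neural and glial markers (1 at an unadjusted p under 0.05) passed, with medians of 0.04 beside Fabp3 and -0.0030 beside Fabp7. Nearest to the threshold were Actn2 and Mb in muscle, with log2 differences of -0.14 and 0.18, and Aldh1l1 and Tubb3 in the neural list, with 0.17 and 0.12. The sums were 1552 to 1676 on cholesterol and 1627 to 1707 on the drug diet for muscle, and 8760 to 8984 and 9707 to 9989 for the neural list. The neural sum was 90.7% Aldh1l1, and the other 8 markers overlapped at 854 to 884 and 833 to 887. Aldh1l1 averaged 7989 on cholesterol, against 192 for Sox10, the next brightest. The neural sum thus follows 1 gene and is not read as a measure of neural or glial cells. In 6 of 17 alternatives 1 neural marker passed, and in 0 of 17 a muscle marker. Hepatocyte markers gave strong signals on all arrays, with sums of 178194 to 180198 on cholesterol and 176157 to 180580 on the drug diet, as the tissue label says. Of these 0 of 11 passed in limma's fit (2 at an unadjusted p under 0.05), and Tat and Hnf4a came nearest, with log2 differences of 0.12 and 0.11. With an intensity trend and robust prior 4 passed and with the test like cyberT 3, where calls over all genes also rose, to 3521 and 3093. Of 11 endothelial markers 0 passed in limma's fit (3 at an unadjusted p under 0.05), 1 or 2 in 3 of 17 alternatives, all lower, and Stab2 and Clec4g came nearest, with log2 differences of -0.12 and -0.13. The arrays give no detection calls here, so no marker can be called absent.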

How the data were processed

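Probe set intensities of 6 Affymetrix Mouse Gene 1.0 ST arrays were used as deposited, on a linear scale. Per the labels' protocols, RNA extraction used Trizol. Partek Genomics Suite and cyberT are the tools that the series design mentions. The sources used here do not give the background correction or normalisation. Array medians were 158 to 163. Of 35556 probe sets, 21789 carried 1 gene symbol, 1621 several and 12146 none, and 21698 of the single-gene ones matched RefSeq by gene identifier. The brightest single-gene probe set stood for each of 19938 genes. Intensities of different probe sets do not rank transcripts, and sums over a list follow its brightest probe sets.

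Diets, taken from the labels' source names, were compared on log2(intensity + 1), which understates changes of dim genes, by lmFit and eBayes of limma 3.58.1 (R 4.3.3). Tests were two-sided, Benjamini-Hochberg adjusted over all genes at 0.05, and every adjusted p is limma's unless another tool is named. With 3 arrays a group, which limits the precision, exact permutation cannot go below 0.1. Python 3.11.15 with pandas 2.3.3, numpy 2.4.6 and matplotlib 3.10.9 made tables and plots. The script was tested on simulated data.

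The members and gene lists were chosen with earlier results of these data known. Named genes were all members and relatives, 3 measured genes on each side of the Fabp5 cluster and of Fabp2, the 5 genes most like each in profile, and in each list up to 6 (markers 4) with the largest changes past the threshold, or the 2 markers with the smallest p where none passed. Flanking genes, Cd36 and Ppara were added after values were seen. Genes on the named list without a single-gene probe set, and the proteins, are not analysed here. No pairing of the arrays by replicate number was evident.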

Additional observations from a re-analysis of the deposited data

How the results depend on the processing

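The members were chosen with this contrast known, so their values are a description of how the processing moves them. Over the alternatives Fabp2 differed by -1.42 to -1.35, Fabp5 by 1.87 to 1.92, Fabp1 by -0.16 to -0.09, Fabp4 by -0.28 to -0.13 and Fabp7 by 0.05 to 0.18, while Fabp3 (-0.03 to 0.05) and Fabp6 (-0.11 to 0.07) took both signs. The count of genes past the threshold ranged from 1489 (without CH1) to 1868 (without LE3) when 1 array was left out, and was 1514 without LE2, against 2410 in full. It was 3521 with an intensity trend and robust prior. Quantile normalisation and median centring over the tested genes only, both chosen after seeing the data, called 3058 genes, 47.7% of them higher, and 2509 genes, 48.4% higher, against 58.0% of the 2410. Lower genes, 1012 in full, numbered 525 without LE2, 551 without CH1, 612 without CH3, 657 with the block, 1560 with the trend and 1598 with quantile normalisation over the tested genes. With a replicate block 1688 genes passed. Deviations of same-numbered arrays correlated at -0.02, -0.10 and 0.16 across genes, and CH2 correlated best with LE1 (0.25). No pairing by replicate number was thus evident. Deviations within a diet offset one another, so these correlations cannot exclude such a pairing. Of the list counts over all alternatives, 555 stayed within 1.5 times of the full value, 50 were larger and 58 smaller. The 555 include counts of 0 that stayed at 0, and each list is counted in either direction, higher and lower. They therefore overstate how stable the lists are. The number of arrays limits the precision, and among the members Fabp6 had the largest standard error (0.09).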
